A study of Mus musculus with 42 samples.

Results

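*Pitx1* and 8 other transcription factor genes of lateral plate mesoderm and its neighbours were followed in the left and right heart field of mouse embryos. They are *Pitx1*, *Tbx4*, *Prrx1*, *Prrx2*, *Foxf1*, *Irx3*, *Irx5*, *Cdx1* and *Cdx2*, and they were found by matching the Ensembl identifiers of the table of counts to GENCODE symbols. All 9 were found among 56953 genes, and 56310 of those rows had a symbol.

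The lateral plate is the sheet of mesoderm that flanks the embryo. It splits into a somatic layer, which builds the body wall and limbs, and a splanchnic layer, which builds the heart and the wall of the gut. The heart field lies in the splanchnic layer, and signals of the NODAL pathway mark the left lateral plate. *Pitx1* is a homeobox gene known for setting hindlimb identity in the posterior lateral plate and for the oral ectoderm and pituitary. *Tbx4* is the hindlimb T-box gene that acts after *Pitx1*. *Prrx1* and *Prrx2* are paired-type homeobox genes of limb and head mesenchyme, *Foxf1* is a forkhead gene of splanchnic mesoderm that responds to Hedgehog signals, *Irx3* and *Irx5* are neighbouring Iroquois homeobox genes, and *Cdx1* and *Cdx2* are caudal homeobox genes of the posterior body.

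RNA was sequenced from 21 embryos at embryonic day 8.5, when the ventricles of the heart tube are tilted. The head, back, heart tube and trunk below the second somite had been removed, and the rest was cut along the midline, which gave 42 libraries. Of these embryos, 5 were *Ccdc40*+/+ with rightward looping of the heart (4 males and 1 female), 11 were *Ccdc40*lnks/lnks with rightward looping (6 males and 5 females), and 5 were *Ccdc40*lnks/lnks with inverted looping (3 males and 2 females). *Ccdc40* encodes a protein that motile cilia need to beat, and the *lnks* allele is carried by every cell of a mutant. They are called here wild type, rightward mutant and inverted mutant. The study's own laterality clusters within the mutants were not used, since the sample labels do not give them and they were formed from side differences in these embryos. Each embryo gave both sides, so that right against left was compared within the embryo, and embryos are named by their number in the labels.

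Totals per library ranged from 36073684 to 62970327 counts. *Ccdc40* itself was at 15.2 to 26.5 CPM (a gene's counts relative to the scaled total of its library, per 1e6) in wild types, at 8.83 to 14.6 CPM in rightward mutants and at 9.99 to 14.8 CPM in inverted mutants, so that wild types and mutants did not overlap. Libraries of 2 embryos stood apart in several lists of tissue markers. The right side of rightward mutant 2_2 had the lowest sum of all 42 libraries for the lists of heart tube muscle (282 CPM, against 883 in the next lowest), splanchnic mesoderm (237 CPM), extraembryonic mesoderm (149 CPM) and yolk sac visceral endoderm (6.36 CPM). The right side of wild type 10_1 had the highest sums of all for neural tube (178 CPM) and paraxial mesoderm (328 CPM) and the lowest for foregut endoderm (213 CPM). Other libraries were extreme in single lists. The right side of rightward mutant 15_5 had the highest sum for extraembryonic mesoderm, 1022 CPM, against a median of 461 over all libraries. Several results are also given without 2_2 or 10_1. In such bulk samples, fewer cells of a type and less RNA per cell cannot be told apart.

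The region before the start of a gene is shown for the paralogues *Prrx1* and *Prrx2*, which differ in CPM, and for *Tbx4*, which was at the limit of detection. Each is the 250 bases before the start site on the gene's own strand, from RefSeq annotation of GRCm38.p6, at chr1:163313651-163313900 on the minus strand for *Prrx1*, chr2:30845117-30845366 on the plus strand for *Prrx2* and chr11:85896515-85896764 on the plus strand for *Tbx4*. Capitals mark CG dinucleotides.
Prrx1: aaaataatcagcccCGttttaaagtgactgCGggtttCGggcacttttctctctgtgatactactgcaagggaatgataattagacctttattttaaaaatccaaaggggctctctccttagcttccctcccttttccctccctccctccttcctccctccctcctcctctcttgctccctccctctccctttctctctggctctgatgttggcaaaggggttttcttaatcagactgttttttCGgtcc
Prrx2: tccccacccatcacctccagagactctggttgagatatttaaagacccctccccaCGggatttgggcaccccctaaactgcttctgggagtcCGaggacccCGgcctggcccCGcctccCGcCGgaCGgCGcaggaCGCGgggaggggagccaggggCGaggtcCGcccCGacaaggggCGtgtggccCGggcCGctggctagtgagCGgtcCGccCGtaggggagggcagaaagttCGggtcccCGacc
Tbx4: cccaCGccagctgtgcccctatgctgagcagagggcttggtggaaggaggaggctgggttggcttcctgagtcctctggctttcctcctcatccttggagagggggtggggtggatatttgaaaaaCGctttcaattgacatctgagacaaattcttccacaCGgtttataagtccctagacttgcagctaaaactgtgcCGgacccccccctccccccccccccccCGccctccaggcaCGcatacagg
The *Prrx1* stretch held 4 CG dinucleotides, *Prrx2* 21 and *Tbx4* 6, against a median of 6 over 32851 promoters of the same length. Of the 9 genes, *Irx3* and *Cdx2* also had such a stretch, with 13 CG each, and *Pitx1*, *Foxf1*, *Irx5* and *Cdx1* had none to match. Searched on both strands, TAATCC, the core that PITX proteins bind, was in none of these 5 stretches and in 6.25% of all promoters, and TTTATG, bound by CDX proteins, was in none and in 10.8% of all. TATAAA was found once, in *Tbx4*, and in 12.4% of all. That match lies on the strand opposite to the gene, and the printed strand reads TTTATA from -85.

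Levels set the 9 genes apart before any comparison of sides. Per kilobase of the canonical transcript, the mean over 42 libraries was 15.5 CPM per kb for *Foxf1*, 13.0 for *Irx3*, 5.59 for *Prrx1*, 4.14 for *Irx5*, 2.97 for *Prrx2*, 1.44 for *Pitx1*, 1.28 for *Cdx2*, 1.14 for *Cdx1* and 0.00757 for *Tbx4*. The step from *Irx3* to *Prrx1* held in 42 of 42 libraries, *Prrx1* exceeded *Irx5* in 40, *Irx5* exceeded *Prrx2* in 41 and *Prrx2* exceeded *Pitx1* in 36. *Foxf1* exceeded *Irx3* in 32 libraries. The order was not separable at its low end, since *Pitx1* exceeded *Cdx2* in 19 of 42 libraries and *Cdx2* exceeded *Cdx1* in 25. The place of *Prrx1* depends on the length chosen, since its annotated exons together cover 16550 bases and its canonical transcript 5951. For *Irx5* these were 3127 and 2574 bases, and for *Prrx2* 5117 and 4597. A gene's length is the same in every library, so that counts of libraries cannot decide this choice. The order on the length of all exons was not computed. In counts per library, *Foxf1* was at 397 to 2873, *Irx3* at 900 to 2767, *Prrx1* at 950 to 2056, *Pitx1* at 31 to 623, *Cdx1* at 20 to 212, *Cdx2* at 19 to 318 and *Tbx4* at 0 to 8.

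**Figure D1:**
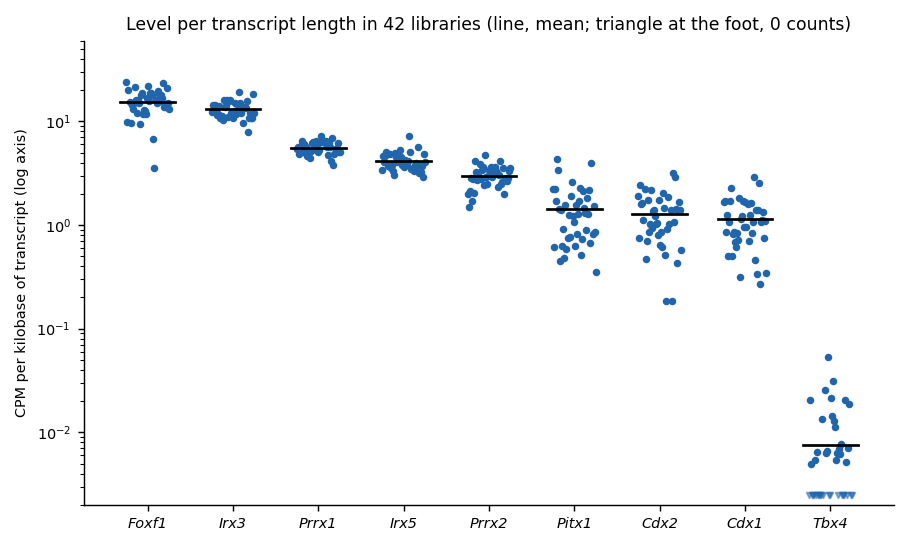
Level of each gene in CPM per kilobase of canonical transcript on a log axis, with a point for each of 42 libraries and a line at the mean. *Foxf1* and *Irx3* are highest at 15.5 and 13.0, *Pitx1*, *Cdx2* and *Cdx1* overlap between 1.14 and 1.44 on average, and *Tbx4* lies at 0.00757, with its libraries at 0 counts drawn as triangles at the foot.

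*Pitx1* was higher on the left in every wild type, on either side in rightward mutants, and higher on the right in 4 of 5 inverted mutants. The spread between embryos was wide, and edgeR called no comparison of the sides, while DESeq2 called that in wild types. The gene lies at chr13:55972864-55984005 on the minus strand of GRCm39. In wild types, the left and right sides of embryo 10_1 had 5.45 and 1.52 CPM, 17_7 had 5.40 and 4.21, 22_4 had 10.7 and 8.35, 7_1 had 3.52 and 1.11, and 8_1 had 3.39 and 1.52. The left was thus higher in 5 of 5 embryos, yet left and right overlapped between embryos. The right sides of 22_4 and 17_7 exceeded the left sides of 7_1 and 8_1. In inverted mutants, embryo 10_3 had 2.18 CPM on the left and 4.51 on the right, 18_2 had 3.16 and 5.32, 2_7 had 1.65 and 9.73, 32_2 had 2.03 and 3.70, and 4_6 had 2.12 and 0.866. On the right 2_7 was the highest and 4_6 the lowest, and 4_6 alone was higher on the left. In rightward mutants, the left side ran from 1.79 to 6.41 CPM with a median of 3.13, and the right side from 1.18 to 5.20 CPM with a median of 3.01.

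The log2 ratio of right over left, taken per embryo with 2 counts added, had a mean of -1.06 ± 0.69 (SD, n = 5) in wild types, -0.30 ± 1.16 (n = 11) in rightward mutants and 0.78 ± 1.34 (n = 5) in inverted mutants. Rightward mutants ranged from -2.11 in 2_2 to 1.52 in 32_3, with 7 higher on the left and 4 higher on the right. That range covers both the wild types and 4 of the inverted mutants. Inverted mutants and wild types differed by 1.84 in the mean ratio (exact permutation test, two-sided p = 0.0317, unadjusted, 1 of 24 such tests over genes and pairs of groups), and 4_6 lay within the range of wild types.

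In edgeR's quasi-likelihood test with the embryo as a block and Benjamini-Hochberg adjustment over all genes, the log2 fold change of *Pitx1*, right over left, was -1.06 (SE 0.26, adjusted p = 1.00) in wild types, -0.31 (SE 0.32, adjusted p = 1.00) in rightward mutants and 0.88 (SE 0.45, adjusted p = 0.411) in inverted mutants. The difference of this asymmetry between inverted mutants and wild types was 1.91 (SE 0.66, p = 0.00846, adjusted p = 0.191). DESeq2, the tool that the study used, called *Pitx1* in wild types alone (log2 fold change -1.05, adjusted p = 0.0298). Among inverted mutants, the value was 1.32 without 4_6 and 0.44 without 2_7, and among males it was 0.26. Among wild types it was -0.86 without 10_1, which had the lowest ratio of its group (-1.81). Among rightward mutants it was -0.13 without 2_2 and -0.49 without 32_3. The study lists *Pitx1* among genes that differ between its laterality clusters of these same embryos, so that its differences between groups are not independent evidence. Reads from *Gm47071*, a gene of the opposite strand that overlaps *Pitx1* and had 80 to 199 counts per library, cannot be told apart from it, as the library kit does not mark strand. The mean log2 ratio of *Gm47071* itself was 0.01 in wild types and 0.11 in inverted mutants.

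On the left, *Pitx1* was at 5.69 ± 2.96 CPM (SD, n = 5) in wild types, 3.34 ± 1.53 (n = 11) in rightward mutants and 2.23 ± 0.559 (n = 5) in inverted mutants. This is a descending order in which neighbouring groups overlap. The level of rightward mutants against wild types on the left was -0.74 on the log2 scale (SE 0.32, p = 0.0300, adjusted p = 0.978 by edgeR's quasi-likelihood test), and -0.41 without wild type 22_4. On the right, inverted mutants had 4.83 ± 3.21 CPM against 2.80 ± 1.44 in rightward mutants, a log2 difference of 0.78 (SE 0.48, adjusted p = 1.00), and 0.34 without inverted mutant 2_7.

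**Figure D2:**
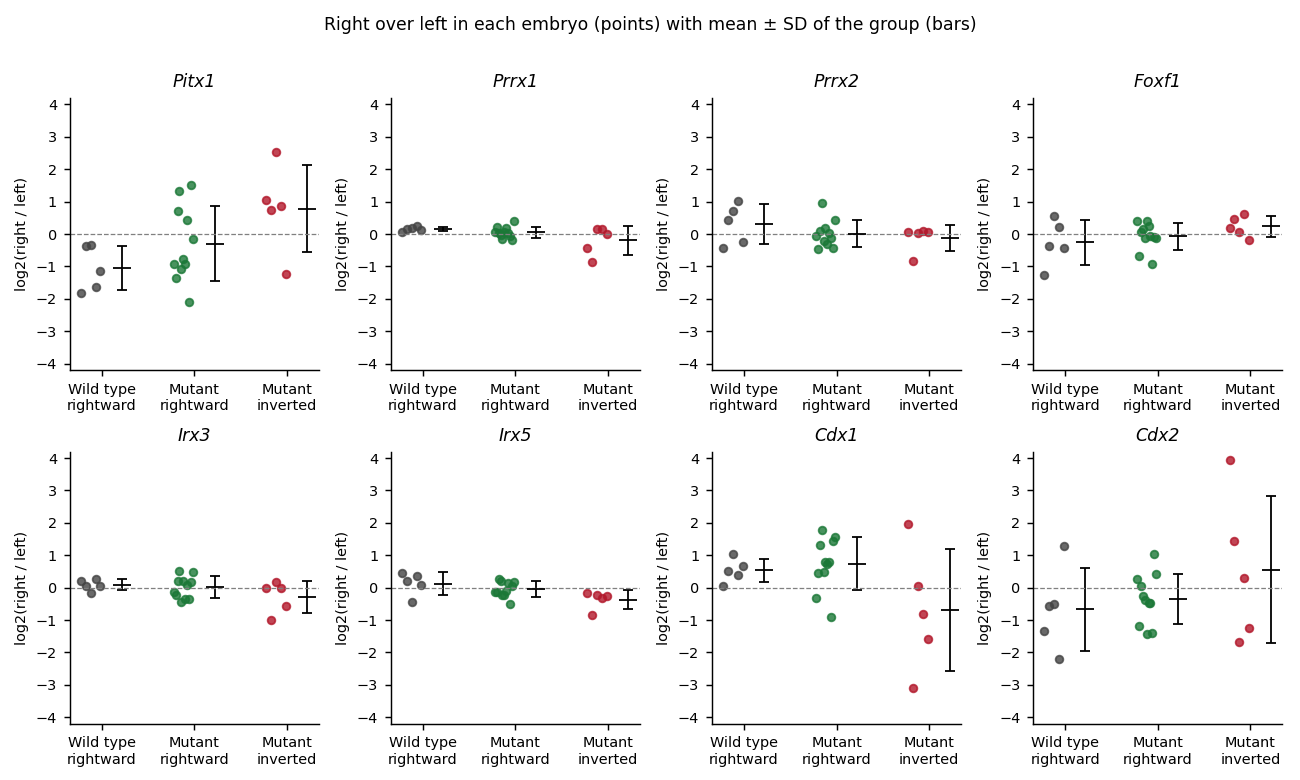
Log2 ratio of right over left for 8 genes, with a point for each embryo and the mean ± SD of each group beside it (5 wild types, 11 rightward mutants and 5 inverted mutants). *Pitx1* is below 0 in 5 of 5 wild types and above 0 in 4 of 5 inverted mutants, *Cdx1* is above 0 in 5 wild types and 9 rightward mutants, *Irx5* is below 0 in 5 of 5 inverted mutants, and *Prrx1* lies between -0.18 and 0.39 outside the inverted group.

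Genes that varied between sides most like *Pitx1* were sought over 21 embryos among 15245 genes with a mean of at least 1 CPM. The highest Pearson correlations of the log2 ratio were those of *Mboat7* (0.877), *Gdf6* (0.858), *Cavin2* (0.831), *Atp10a* (0.828) and *Stx3* (0.816), a description of the top of a ranked list and not a test. *Gdf6* encodes a ligand of the BMP family and *Mboat7* an enzyme of phospholipid remodelling. Among the 11 rightward mutants alone, the correlation with *Pitx1* was 0.969 for *Gdf6* and 0.852 for *Mboat7*. The study divides these 11 embryos further by their asymmetry, the labels do not say how, and the part of that division in correlations over the 11 was not tested. *Gdf6* was higher on the left in 4 of 5 wild types, 6 of 11 rightward mutants and 2 of 5 inverted mutants.

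*Tbx5*, the forelimb T-box gene, was higher on the right in inverted mutants, with a log2 fold change of 0.74 (SE 0.09, adjusted p = 0.00702) by edgeR's quasi-likelihood test. Its ratio stood at rank 1502 of the genes most like *Pitx1*, with a correlation of 0.511.

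*Tbx4*, which *Pitx1* is known to act with in the hindlimb field, had almost no reads. It lies at chr11:85776887-85806923 on the plus strand, and its median was 1 count per library. The highest count was 8, in the left side of rightward mutant 19_6, and no other library exceeded 4. Summed over each group and side, it had 3 and 3 counts on the left and right of 5 wild types, 15 and 19 in 11 rightward mutants, and 2 and 6 in 5 inverted mutants. It did not pass the filter on low counts in any comparison, so that no ratio was tested. A count of 3, which a library without reads allows, was 0.0468 to 0.0838 CPM here, and a side difference below that was not detectable at this depth.

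*Prrx1* was nearly even between sides. The gene lies at chr1:163041844-163142033 on the minus strand. In wild types, embryo 10_1 had 32.4 CPM on the left and 33.7 on the right, 17_7 had 28.5 and 32.1, 22_4 had 34.3 and 38.8, 7_1 had 30.0 and 35.6, and 8_1 had 30.8 and 33.4. The right side was higher in 5 of 5, by a log2 ratio of 0.15 ± 0.07 (SD), the tightest of the 8 genes that could be tested. This was as far as 5 embryos can go (p = 0.062 in a two-sided exact sign-flip test, the smallest possible), and edgeR's quasi-likelihood test gave 0.15 (SE 0.07, adjusted p = 1.00). Rightward mutants had a mean ratio of 0.05 ± 0.17 with 7 of 11 higher on the right, and inverted mutants -0.20 ± 0.45 with 3 of 5 higher on the right. Over the 16 embryos with rightward looping, 12 were higher on the right (p = 0.0432 in a two-sided exact sign-flip test, unadjusted, a pooling made after the values were seen). Among inverted mutants, 18_2 (-0.87) and 10_3 (-0.43) carried the negative mean and the other embryos lay between 0.00 and 0.16. On the right, *Prrx1* was at 29.3 ± 5.49 CPM (n = 5) in inverted and 34.9 ± 4.17 (n = 11) in rightward mutants. This was a log2 difference of -0.25 (SE 0.10, p = 0.0155, adjusted p = 1.00 by edgeR's quasi-likelihood test).

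*Prrx2*, its paralogue, was lower in CPM and less even. It lies at chr2:30724984-30774419 on the plus strand. On the left, the 5 wild types had 9.13, 9.82, 7.83, 9.38 and 15.1 CPM in embryos 10_1, 17_7, 22_4, 7_1 and 8_1, and the rightward mutants ran from 11.3 to 17.7 CPM with a median of 14.6. Only wild type 8_1 reached the mutants' range. The log2 difference was 0.52 (SE 0.13, p = 0.000841, adjusted p = 0.674) by edgeR's quasi-likelihood test and 0.52 (adjusted p = 0.0767) by DESeq2. Without 8_1 it was 0.78 and passed the edgeR test (adjusted p = 0.0161), in a fit that called 2 genes in all. On the right, wild types had 12.9 ± 4.34 CPM and rightward mutants 15.0 ± 3.25, with a log2 difference of 0.17 (SE 0.19, adjusted p = 1.00), which was 0.026 without wild type 10_1 and 0.36 without wild type 7_1. Right over left, *Prrx2* had mean log2 ratios of 0.30 ± 0.62 in wild types, 0.01 ± 0.41 in rightward mutants and -0.12 ± 0.41 in inverted mutants. In the inverted group 4 of 5 embryos lay between 0.03 and 0.09, and 18_2 at -0.84 set the mean.

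*Foxf1*, the splanchnic gene, had the highest level per length and no side preference that held across embryos. It lies at chr8:121811074-121814883 on the plus strand. In wild types the left and right sides had 58.7 and 24.4 CPM in 10_1, 49.8 and 38.2 in 17_7, 23.9 and 35.2 in 22_4, 32.4 and 37.4 in 7_1, and 53.2 and 39.6 in 8_1. The ratio thus went both ways, from -1.26 to 0.56, and the edgeR log2 fold change of -0.27 was -0.016 without 10_1. Its mean was -0.26 ± 0.70 in wild types, -0.07 ± 0.42 in rightward mutants and 0.23 ± 0.32 in inverted mutants, where 4 of 5 embryos were higher on the right (edgeR log2 fold change 0.24, SE 0.12, p = 0.0680, adjusted p = 0.376). The right side of 2_2 had the lowest level of all libraries, 8.74 CPM, with 16.8 CPM on its left. Over the 11 rightward mutants, the ratio of *Foxf1* followed that of the summed splanchnic list (*Foxf2*, *Hand1*, *Hand2*, *Gata4* and 12 others), with a Pearson correlation of 0.836 (permutation p = 0.00178) and Spearman's rho of 0.773 (p = 0.00742), and of 0.835 without the 2 embryos farthest out. In these embryos it also followed the somatic and limb field list (r = 0.843, permutation p = 0.00160, rho = 0.891, p = 0.000490, and r = 0.741 without those farthest out). Over all 21 embryos r was 0.880 with the splanchnic list, 0.816 with heart tube muscle, 0.792 with foregut endoderm, -0.61 with neural tube and 0.576 with the somatic list. Without those farthest out these were 0.730, 0.618, 0.655, -0.58 and 0.398. These p-values are not adjusted, and 112 pairs of a gene and a list were computed. Adjusted over those pairs, no Spearman value over the 11 embryos was under 0.05, the lowest being 0.0549, and the lowest of Pearson was 0.0304.

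*Irx3* and *Irx5* sit at chr8:92525153-92528695 on the minus strand and chr8:93084253-93102914 on the plus strand, with 555557 bases between them. *Irx5* was higher on the left in 5 of 5 inverted mutants and showed no common side in the other groups. In inverted mutants, embryo 10_3 had 10.2 CPM on the left and 9.15 on the right, 18_2 had 14.7 and 8.10, 2_7 had 9.83 and 8.38, 32_2 had 9.54 and 7.56, and 4_6 had 12.6 and 10.5. The right was lower in each, by most in 18_2. In wild types, embryo 10_1 had 8.66 and 11.9 CPM, 17_7 had 10.5 and 12.0, 22_4 had 13.1 and 9.55, 7_1 had 9.76 and 12.4, and 8_1 had 9.23 and 9.70. There 4 of 5 were higher on the right, 22_4 being the exception.

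The mean log2 ratio of *Irx5* was -0.37 ± 0.28 in inverted mutants, 0.12 ± 0.35 in wild types and -0.04 ± 0.24 in rightward mutants. Inverted mutants differed from wild types by -0.49 (exact permutation test, two-sided p = 0.0397) and from rightward mutants by -0.32 (p = 0.0385), both unadjusted among 24 tests. In edgeR's quasi-likelihood test, the fold change within inverted mutants was -0.36 on the log2 scale (SE 0.12, p = 0.0188, adjusted p = 0.211), and -0.25 without 18_2. DESeq2 gave -0.37 with an adjusted p of 0.0542. The difference from wild types was -0.49 (SE 0.17, p = 0.00966, adjusted p = 0.199) by edgeR and passed its threshold in 1 of 21 fits that left out an embryo, at -0.62 without wild type 22_4 (adjusted p = 0.0472). *Crnde*, on the opposite strand across *Irx5*, had 342 to 1043 counts and the same direction in inverted mutants, with a mean log2 ratio of -0.42, and without strand the reads of both cannot be separated.

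*Irx3* had a mean log2 ratio of 0.08 ± 0.17 in wild types, 0.02 ± 0.33 in rightward mutants and -0.29 ± 0.48 in inverted mutants. In inverted mutants, 10_3 had 37.8 CPM on the left and 37.2 on the right, 18_2 had 42.9 and 21.6, 2_7 had 29.4 and 33.0, 32_2 had 29.7 and 29.6, and 4_6 had 50.04 and 33.4. The lower right level thus came from 18_2 and 4_6, and the other embryos had log2 ratios between -0.02 and 0.16. By edgeR the log2 fold change was -0.28 (SE 0.16, adjusted p = 0.488). On the right, inverted against rightward mutants, *Irx3* differed by -0.26 (SE 0.11, p = 0.0337) and *Irx5* by -0.31 (SE 0.12, p = 0.0205), and both had an adjusted p of 1.00. The value of *Irx3* was -0.15 without inverted mutant 18_2. *Irx1* and *Irx2*, which belong to another Iroquois cluster, were at a mean of 9.17 and 6.02 CPM.

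Markers of neighbouring tissue differed between sides in the inverted mutants, where *Irx3*, *Irx5* and *Prrx1* had mean log2 ratios below 0 and did not pass the test. The summed neural tube list (*Sox1*, *Sox2*, *Sox3*, *Pax6*, *Olig2*, *Nkx6-1*, *Nkx2-2* and *Dbx1*) was lower on the right in 5 of 5, at 53.2 to 97.6 CPM on the left and 12.1 to 55.5 on the right, with a mean log2 ratio of -1.62 ± 0.82. Of its 8 genes, 3 fell by edgeR's quasi-likelihood test, *Pax6* (-2.02, SE 0.36, adjusted p = 0.0309), *Nkx6-1* (-1.45, SE 0.28, adjusted p = 0.0424) and *Olig2* (-1.77, SE 0.35, adjusted p = 0.0441). The paraxial mesoderm list was lower on the right in 5 of 5 as well, at 142 to 226 CPM on the left and 85.3 to 145 on the right. Heart tube muscle was higher on the right in 5 of 5, with a mean log2 ratio of 1.03 ± 0.30, and 6 of its 8 genes rose, *Actc1* by 1.12 (SE 0.08, adjusted p = 0.00257) and *Myl4* by 1.08 (SE 0.10, adjusted p = 0.00329) among them. Of the splanchnic list, 5 of 16 genes rose, the smallest adjusted p being that of *Nkx2-5* (1.06, SE 0.14, adjusted p = 0.0111). No list gene had a count of 0 in all libraries. Over all 21 embryos, the Pearson correlation of the ratios with the neural tube list was -0.04 for *Irx3*, 0.30 for *Irx5* and 0.0012 for *Prrx1*. In the 11 rightward mutants these were -0.49, -0.08 and -0.13. With the paraxial mesoderm list they were 0.21, 0.35 and 0.52 over the 21 embryos. The part of these tissues in the side ratios of *Irx3*, *Irx5* and *Prrx1* was not tested.

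**Figure D3:**
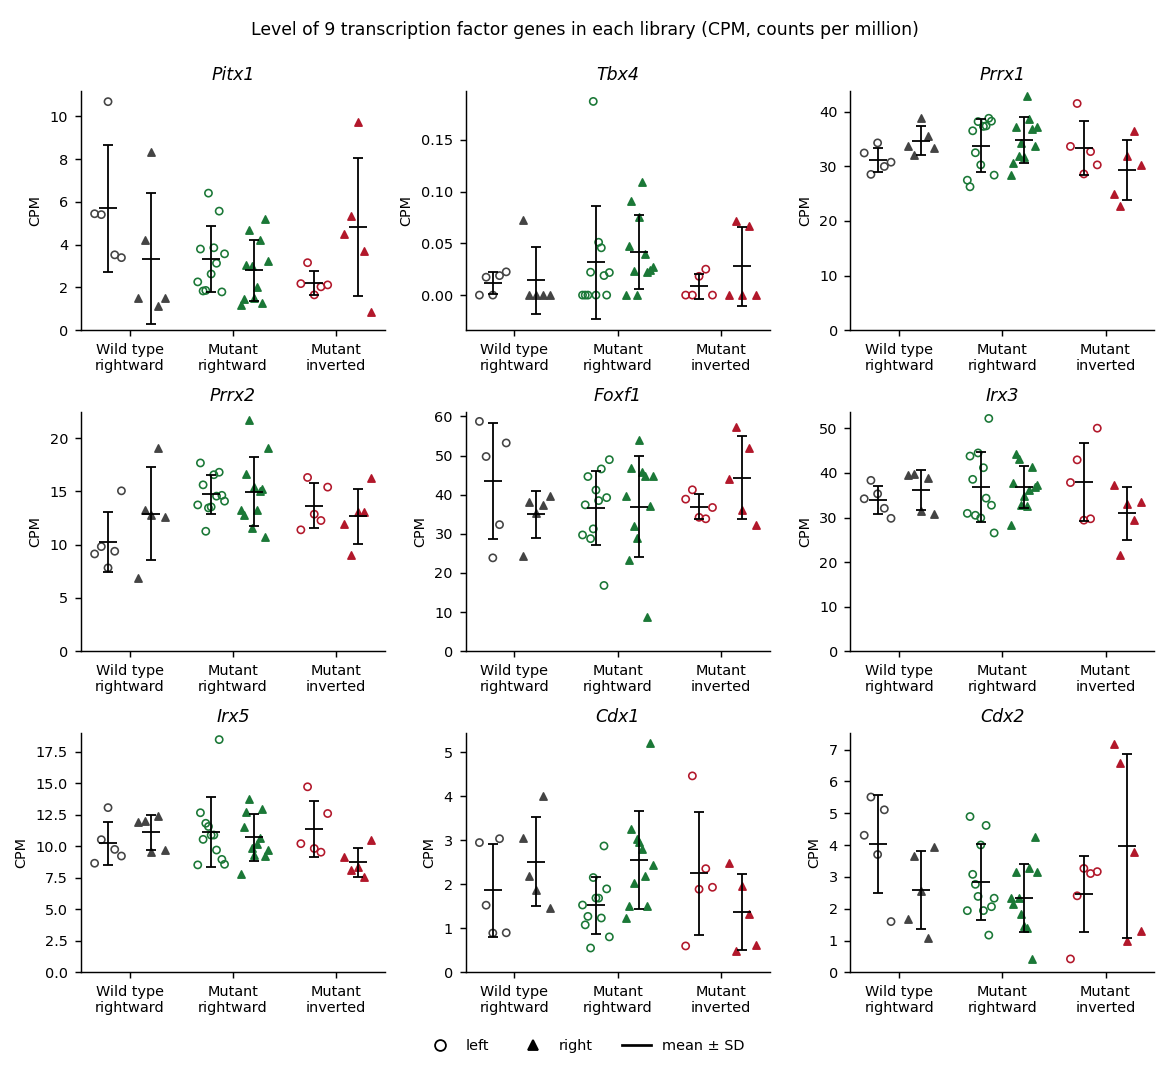
CPM of the 9 genes in each library by group, with open circles for left sides, filled triangles for right sides and black bars for the mean ± SD (5, 11 and 5 embryos). *Pitx1* has its highest mean on the left in wild types, 5.69 CPM, and on the right in inverted mutants, 4.83 CPM, while *Prrx1*, *Irx3* and *Irx5* overlap between sides in every group.

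*Cdx1* was higher on the right in most embryos of both groups with rightward looping. It lies at chr18:61151934-61169314 on the minus strand. In wild types, embryo 10_1 had 2.95 CPM on the left and 3.04 on the right, 17_7 had 1.52 and 2.20, 22_4 had 0.893 and 1.88, 7_1 had 3.03 and 4.00, and 8_1 had 0.899 and 1.47. The right side was higher in 5 of 5, although the sides overlapped between embryos. In rightward mutants, the left side ran from 0.553 to 2.87 CPM with a median of 1.53 and the right side from 1.23 to 5.20 CPM with a median of 2.45, and 9 of 11 embryos were higher on the right. In inverted mutants the values went far in both directions. Embryo 10_3 had 0.5997 CPM on the left and 2.48 on the right, 18_2 had 4.46 and 0.479, 2_7 had 1.89 and 1.97, 32_2 had 2.35 and 1.33, and 4_6 had 1.93 and 0.614.

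The mean log2 ratio of *Cdx1* was 0.53 ± 0.36 in wild types, 0.74 ± 0.81 in rightward mutants (p = 0.0166 in a two-sided exact sign-flip test) and -0.69 ± 1.89 in inverted mutants. Over the 16 embryos with rightward looping it was 0.68 ± 0.70 with 14 higher on the right (p = 0.00217 in the same test), a pooling of both groups made after their values were seen. Both p-values are unadjusted. In edgeR's quasi-likelihood test, the log2 fold change was 0.53 (SE 0.19, p = 0.0250, adjusted p = 1.00) in wild types and 0.75 (SE 0.22, p = 0.00464, adjusted p = 1.00) in rightward mutants, where DESeq2 gave an adjusted p of 0.145. It was 0.92 without 2_2 (adjusted p = 0.300), which was the embryo with the strongest left bias. The difference between inverted and rightward mutants was -1.45 (SE 0.57, p = 0.0183, adjusted p = 0.347), and it lay between -2.07 without 10_3 and -0.86 without 18_2.

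*Cdx2*, at chr5:147237615-147244091 on the minus strand, had the widest range of ratios over all 21 embryos. In inverted mutants, 10_3 had 0.422 CPM on the left and 7.19 on the right, 18_2 had 2.40 and 6.57, 2_7 had 3.27 and 0.984, 32_2 had 3.10 and 3.79, and 4_6 had 3.16 and 1.31. The log2 ratios ran from -1.69 to 3.95 there, from -2.21 to 1.28 in wild types and from -1.44 to 1.03 in rightward mutants. The left side was higher in 4 of 5 wild types, 7 of 11 rightward mutants and 2 of 5 inverted mutants. Means were -0.67 ± 1.29, -0.35 ± 0.78 and 0.55 ± 2.27, and the edgeR log2 fold changes were -0.70 (SE 0.46), -0.34 (SE 0.21) and 0.44 (SE 0.76), all with adjusted p of 0.851 or more. The value in wild types was -1.16 without 8_1 and -0.32 without 7_1.

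The ratio of *Cdx2* moved with that of yolk sac visceral endoderm markers (*Ttr*, *Apoa1*, *Apoa4*, *Afp*, *Amn* and *Cubn*). In 10_3 the list had a log2 ratio of 4.66 beside 3.95 for *Cdx2*, in 18_2 it had 1.22 beside 1.43, and in wild type 7_1 it had -2.95 beside -2.21. Over 21 embryos both had the same sign in 19, with a Pearson correlation of 0.904 (permutation p = 1e-05, the smallest that 100000 draws can give), Spearman's rho of 0.813 (permutation p = 6e-05) and a correlation of 0.840 without the 2 embryos farthest out. In the 11 rightward mutants alone r was 0.830 (permutation p = 0.000970), rho was 0.736 (p = 0.0128) and r was 0.617 without those farthest out. *Cdx2* also moved with the list of extraembryonic mesoderm, allantois and amnion, with r = 0.823 in these 11 (0.938 without those farthest out) and 0.669 over 21 embryos. The yolk sac list itself ran from 6.36 to 789 CPM in sum, and the part of either list in the level of *Cdx2* was not tested. Genes of the posterior body were measured beside *Cdx1* and *Cdx2*. Of 14 caudal and posterior Hox genes (*Cdx4*, *T*, *Tbx6*, *Wnt3a*, *Fgf8*, *Sp5* and Hox genes among them), 10 were tested in inverted mutants and 11 in each other group, and none was called by edgeR. The summed list had a mean log2 ratio of -0.01 ± 0.19 in wild types, -0.10 ± 0.24 in rightward mutants and -0.14 ± 0.28 in inverted mutants. *Cdx4*, the third caudal gene, had at most 12 counts.

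**Figure D4:**
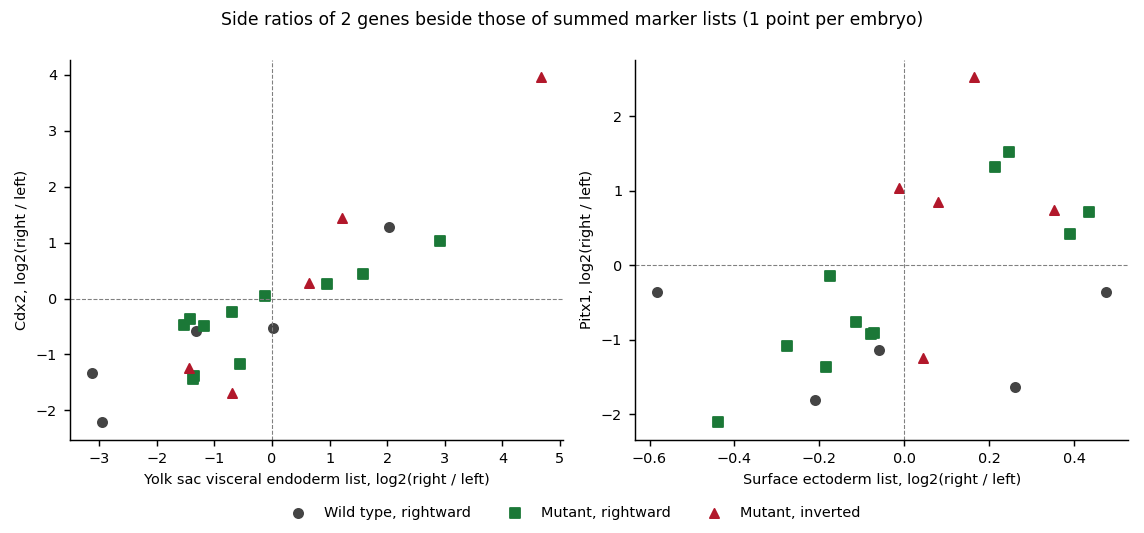
Log2 ratio of right over left of *Cdx2* against that of the summed yolk sac visceral endoderm list (left) and of *Pitx1* against that of the summed surface ectoderm list (right), with a point for each of 21 embryos and a colour and shape for each group. *Cdx2* rises with its list up to 3.95 and 4.66 in inverted mutant 10_3, and *Pitx1* rises with its list in the 11 rightward mutants (r = 0.861), with r = 0.518 over all 21 embryos.

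In the 11 rightward mutants, several of the 9 genes varied together between sides. The ratio of *Pitx1* correlated with that of *Irx5* (r = 0.843, permutation p = 0.00130, rho = 0.809, p = 0.00380), with 0.937 without the 2 embryos farthest from the median of *Pitx1* and 0.780 without 2_2. It correlated with that of *Cdx1* (r = 0.835, permutation p = 0.00104, rho = 0.873, p = 0.000860), with 0.785 without the farthest and 0.769 without 2_2. *Irx5* and *Cdx1* had an r of 0.849 (permutation p = 0.000780, rho = 0.818, p = 0.00349) and 0.725 without the farthest. These were the closest of 28 pairs, and the p-values are not adjusted. The ratios of *Pitx1* left a gap between -0.77 and -0.14, with 6 embryos below it and 5 above. Within those 6, chosen after their values were seen and given with no test, r was 0.814 with *Irx5* and 0.761 with *Cdx1*, with rho of 0.486 and 0.657, and r ran from 0.287 (*Prrx2*) to 0.924 (*Foxf1*) over the 7 genes. Over all 21 embryos, *Pitx1* had r = -0.08 with *Irx5* and r = 0.21 with *Cdx1*, so that the relation among rightward mutants did not carry over to the pool with the other groups. All ratios of an embryo share its libraries. *Prrx1* did not follow *Pitx1* (r = -0.21), and with *Foxf1* r was 0.416, and 0.0925 without 2_2.

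The 11 rightward mutants also varied in surface ectoderm, a tissue in which *Pitx1* is known from the oral region. The ratio of the summed list (*Grhl2*, *Grhl3*, *Wnt6*, *Trp63*, *Tfap2c* and *Krt5*) ran from -0.44 to 0.43 in rightward mutants and correlated with that of *Pitx1* (r = 0.861, permutation p = 0.000780, rho = 0.836, p = 0.00231, and r = 0.929 without the 2 farthest out) and of *Irx5* (r = 0.821, permutation p = 0.00174, rho = 0.791, p = 0.00549). *Pitx1* also correlated with the list of extraembryonic mesoderm, allantois and amnion (r = 0.831, permutation p = 0.00108, rho = 0.791, p = 0.00548, and r = 0.688 without the farthest). These p-values are unadjusted among the 112 pairs, and the Spearman values did not pass adjustment over them (0.0862 and 0.123 for *Pitx1*, 0.123 for *Irx5*). Over all 21 embryos, the correlation with surface ectoderm was 0.518 for *Pitx1* and 0.306 for *Irx5*, and that of *Pitx1* was 0.775 with the extraembryonic list and 0.702 with the splanchnic list. With endothelium *Irx5* had r = -0.72 in the 11 embryos and -0.74 over 21 (-0.33 and -0.68 without the farthest), and *Pitx1* had r = -0.66 in the 11 and 0.227 over 21. In wild types the surface ectoderm list was higher on the left in 3 of 5 embryos, with a mean log2 ratio of -0.02 ± 0.41, beside -1.06 for *Pitx1*, and in inverted mutants it was 0.12 ± 0.14. In sum it was at 42.5 to 83.6 CPM over the libraries of rightward mutants. The extraembryonic list had a mean log2 ratio of -0.48 ± 0.48 in wild types, with 4 of 5 higher on the left. This was -0.04 ± 0.52 in rightward mutants and 0.64 ± 0.46 in inverted mutants, with 5 of 5 of the latter higher on the right. The part of either list in the ratio of *Pitx1* was not tested.

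**Figure D5:**
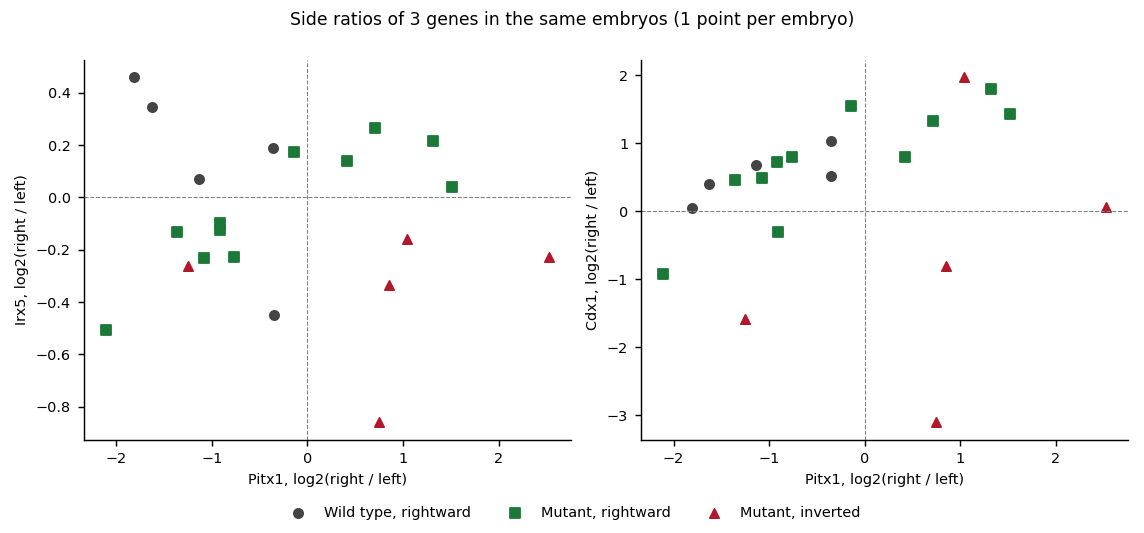
Log2 ratio of right over left of *Irx5* (left) and *Cdx1* (right) against that of *Pitx1*, with a point for each of 21 embryos and a colour and shape for each group. The 11 rightward mutants line up (r = 0.843 and 0.835), wild types lie to the left of 0 for *Pitx1*, and inverted mutants lie below 0 for *Irx5* at any ratio of *Pitx1*.

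Counts over the 8 tested genes summarise these comparisons. By the quasi-likelihood test of edgeR, adjusted over all genes by Benjamini-Hochberg, 0 of 8 were called in each of 10 comparisons, at a threshold of 0.05. For right over left, the share of all genes called was 0% of 23182 in wild types, 0.0263% of 22795 in rightward mutants and 2.04% of 22960 in inverted mutants. At an unadjusted p under 0.05 there were 2 of the 8 in wild types (*Pitx1* and *Cdx1*), where 2.76% of all genes were, 1 in rightward mutants (*Cdx1*), where 3.59% were, and 1 in inverted mutants (*Irx5*), where 15.1% were. DESeq2 called 1 of the 8 in wild types (*Pitx1*) and none in the other groups, with 0.088%, 0.149% and 8.84% of all genes. In inverted mutants, 1 of 8 is no more than the share over all genes. The counts in wild types include *Pitx1*, whose left bias was known from the study of these same embryos.

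For the difference of right over left between inverted mutants and wild types, 0.513% of 26335 genes were called, 13.6% had an unadjusted p under 0.05, and DESeq2 called 5.16%. The unadjusted p was under 0.05 for 3 of the 8, *Pitx1*, *Irx5* and *Prrx1* (-0.35, SE 0.15, p = 0.0292, and -0.17 without inverted mutant 18_2). Between inverted and rightward mutants those shares were 0.311%, 10.5% and 2.38%, with 2 of the 8 unadjusted, *Cdx1* and *Irx5* (-0.33, SE 0.15, p = 0.0397, and -0.20 without inverted mutant 18_2). Between rightward mutants and wild types they were 0%, 3.04% and 0%, with none of the 8 unadjusted. DESeq2 called 0 of the 8 in all of these differences.

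For levels on the left, 0.0242% of 24838 genes were called between rightward mutants and wild types, 5.02% had an unadjusted p under 0.05, among them 2 of the 8 (*Prrx2* and *Pitx1*), and DESeq2 called 0.0807%. Between inverted and rightward mutants on the left the shares were 0.0121%, 7.89% and 0.437%, with none of the 8 unadjusted. On the right, they were 0.0121% of 24859 genes, 3.28% and 0.0242% between rightward mutants and wild types, with none of the 8 unadjusted. Between inverted and rightward mutants on the right they were 0.00805%, 4.26% and 0.0727%, with 4 of the 8 unadjusted (*Prrx1*, *Irx3*, *Irx5* and *Cdx1*, the last at -0.89, SE 0.37, p = 0.0265). All 4 were lower in inverted mutants, and DESeq2 called 0 of the 8 in each comparison of levels.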

How the data were processed

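RNA sequencing covered the left and right heart field of 21 embryos. Per the study's methods, cDNA of poly-A RNA was amplified from 10 ng with a low-input NEBNext kit, duplicates were removed, and reads were aligned to GRCm39 with STAR and counted by featureCounts of Subread 2.0.6. Libraries of this kit are generally known to keep no strand. The strand setting and the treatment of reads on several genes are not given in the sources used here. The authors deposited these counts per gene, which are whole numbers, unfiltered and not normalized. The values are from 42 libraries of 36073684 to 62970327 counts. Intervals and floors of counts cover counting error only.

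Identifiers were named and placed by GENCODE release M39 of GRCm39, the build of the files. Groups, sides, embryos and sexes came from the sample labels. Both sides of an embryo were paired by the embryo in the labels. The labels do not name litters, and p-values measure the spread between these embryos. Some embryos share the first part of their number, also across groups, such as 10_1 and 10_3. The labels do not say what that part means, and no test used it.

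Counts were tested in R 4.3.3 with edgeR 4.0.16 (TMM, quasi-likelihood test) on genes that filterByExpr kept (a minimum proportion of 0.2, a large group size of 50, at least 10 counts in total and a minimum of 5), and adjusted by Benjamini-Hochberg over all genes kept. The embryo was the block for right against left, group differences were side by group interactions fitted to all libraries with the same block, and levels per side carried sex. DESeq2 1.42.0 was an alternative. CPM used TMM sizes, and log2 ratios per embryo a prior count of 2. Exact sign-flip tests (32, of which 8 pooled both groups with rightward looping) and exact permutation tests (24) were two-sided. Correlations used 100000 permutations. Scripts were tested on simulated data before use.

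All 9 genes are described, and results on their paralogues are not reported here apart from single genes. From each marker list, genes that passed the test could be named, up to 4 per comparison by smallest adjusted p, and otherwise the 2 of highest mean CPM, besides the list's own members. For *Pitx1* and *Tbx4* the 5 genes of highest correlation were to be named, and *Tbx4* was too low to compute it. The genes and lists were chosen with earlier results of these data known. Alternatives were DESeq2, its size factors, library size alone, no filter, at least 10 counts in every library, males alone, no embryo block, a fit of all libraries, no sex term, a prior count of 0.5 and each embryo left out in turn.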

Additional observations from a re-analysis of the deposited data

Results flagged for a closer look

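In groups of 5 embryos, 48 sets of values were examined for 1 value that stands apart from the others (Dixon's test), namely the level on each side and the ratio of the 8 tested genes in wild types and inverted mutants, and 5 sets had one. Chance gives about 1 in 20. *Pitx1* was at 10.7 CPM on the left of wild type 22_4, above 3.39 to 5.45 CPM in the others, and its right side was also the highest of its group. *Prrx2* was at 15.1 CPM on the left of wild type 8_1, above 7.83 to 9.82 CPM, and without this embryo the level of rightward mutants against wild types passed edgeR's adjusted threshold. *Foxf1* was at 24.4 CPM on the right of wild type 10_1, below 35.2 to 39.6 CPM in the others. The right side of that embryo also had the highest sum of the neural tube list of all libraries, 178 CPM, and the part of that tissue in the value was not tested.

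Inverted mutant 18_2 stood apart in 2 sets, with a log2 ratio of right over left of -0.84 for *Prrx2* and of -0.86 for *Irx5*. The same embryo had the lowest ratios of its group for *Prrx1*, *Irx3* and *Cdx1* (-0.87, -0.99 and -3.10), and its right side had the highest sum of the yolk sac visceral endoderm list of all libraries, 789 CPM.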

How the results depend on the processing

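No gene of the 8 was called by edgeR, and of 75 counts under other settings 74 stayed the same. Those of genes called stayed at 0, and the others are the counts of exact tests given below. The exception was DESeq2 in wild types, which called 1 (*Pitx1*). Leaving out 1 embryo at a time gave 0 to 1 genes for the difference between inverted mutants and wild types (*Irx5*, without wild type 22_4) and 0 to 1 for the level on the left of rightward mutants against wild types (*Prrx2*, without wild type 8_1), and 166 of 168 such counts stayed at 0. Of 283 single log2 fold changes under other settings, 5 changed sign, all in rightward mutants and from main values of -0.06 to 0.01. *Prrx2* was -0.00041 with library size alone and -0.16 in males, *Irx3* was -0.043 in males, and without the embryo block, which takes the pairing out of the fit, *Foxf1* was 0.0049 and *Irx3* -0.0030. The fit without this block called 0 of the 8 genes in each comparison. Of 441 values with 1 embryo left out, 13 changed sign. The ranges were -0.087 to 0.056 for *Prrx2*, -0.10 to 0.018 for *Foxf1* and -0.031 to 0.058 for *Irx3* in rightward mutants, and -0.16 to 0.063 for *Prrx2* and -0.27 to 1.03 for *Cdx2* in inverted mutants. The cause was not tested. A prior count of 0.5 left the number of exact tests under 0.05 at 1 within groups and 3 between groups.

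Counts over all genes depended more on the settings. In inverted mutants, edgeR called 468 genes between sides and DESeq2 1755, with 942 without a filter, 305 without the block, 141 in a fit of all libraries, 53 in males and 138 (without 32_2) to 446 with 1 embryo left out. For the difference from wild types edgeR called 135 and DESeq2 911, with 207 without a filter, 7 without the block, 3 in males and 17 (without inverted mutant 32_2) to 641 (without wild type 22_4) with 1 embryo left out. For that from rightward mutants these were 82, 456, 131, 17, 7 and 18 (without inverted mutant 18_2) to 192 (without wild type 10_1). In rightward mutants edgeR called 6 between sides, DESeq2 32, 1 without the block, 1 in males and 2 to 8 with 1 embryo left out, and in wild types 0, with 20 by DESeq2, 2 without a filter and 1 in a fit of all libraries. Levels gave 2 to 6 genes by edgeR, 6 to 104 by DESeq2, 0 to 1 in males, 2 to 11 without a filter, 2 to 4 with a filter of 10 counts and 0 to 12 with 1 embryo left out, and without sex as a term the 2 genes of the right level of inverted against rightward mutants became 0. *Tbx4* was too low for any comparison to test it, and *Cdx1* had low counts.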
